A study of Caenorhabditis elegans with 8 samples.

Results

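The genes described here are CD4.8 and CD4.10 on chromosome V, T28A8.6, T28A8.5 and T28A8.4 on chromosome III, and Y47G6A.25 on chromosome I, 6 of the 46748 Caenorhabditis elegans genes in the count tables. They were chosen by their levels in these same libraries, as neighbours that were both higher in 3A than in WT embryos, so their 3A-over-WT differences, and any count of members that passed a threshold, are given below as a description and support nothing by themselves. Whole late embryos were profiled by poly(A)-selected, strand-specific RNA sequencing. The 3A group was lin-52(bn151), in which the LIN-52 residue changes L42A, C44A and E46A are combined with a GFP and 3xFLAG tag, and the WT group was lin-52(bn139), which carries that tag on unaltered LIN-52. Both groups are therefore tagged at lin-52 and neither is an untagged wild type. Each group had 4 libraries, labelled as biological replicates 1 to 4, from embryos of adults grown for 72 h in liquid culture and held for up to 3.5 h at 20 °C. The comparison asked which genes are misexpressed once LIN-35 no longer associates with MuvB.

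LIN-52 is a subunit of MuvB, which together with the pocket protein LIN-35 and an E2F-DP dimer forms DREAM, a repressor of transcription found at many gene promoters. In C. elegans, loss of this repression is known to let genes normally used in the germ line be transcribed in somatic cells. Worm genes are also often packed close together: some sit head to head with their start sites side by side, and others lie in operons, where a series of genes on 1 strand is transcribed from a shared promoter and separated by trans-splicing. Neighbours can therefore share regulatory DNA or a transcript, and gene counts alone do not show which. In bulk samples such as these, more cells that express a gene and more RNA per cell cannot be told apart.

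The libraries held from 17346339 to 29101114 gene-assigned read pairs in 3A and from 14667743 to 68040557 in WT. The members had 47 to 572 counts per library in 3A and 7 to 284 in WT. Ribosomal RNA genes took 1.75% to 40.7% of counts in 3A and 0.720% to 3.24% in WT. The altered gene itself, lin-52, was at 9.58, 3.80, 5.55 and 8.52 CPM (TMM-scaled counts per 1000000 counts) in 3A replicates 1 to 4 and at 12.3, 3.70, 6.36 and 4.82 CPM in WT replicates 1 to 4, and its log2 fold change, 0.0032 (SE 0.41), was within the spread between replicates. Gene counts do not show the substitutions. A gene was called here when its adjusted p-value in edgeR's quasi-likelihood test was under 0.05. Of 8 DREAM component genes, 0 were called, 1 had an unadjusted p under 0.05 and 0 were called by DESeq2. Their median log2 fold change was 0.47, against -0.08 over all genes tested, and 7 of 8 were positive. With library size only the medians were 0.13 and -0.40, and 5 of 8 were positive. The 10 germline and meiosis markers summed to 92.8 to 156 CPM in 3A and 30.4 to 85.5 CPM in WT, with no overlap between the groups. All 10 had a positive log2 fold change (median 0.59; 8 of 10 with library size only), and 1 was called, syp-1, a gene of the synaptonemal complex. The 13 early-embryo markers summed to 57.6 to 84.3 CPM in 3A and 37.1 to 67.1 CPM in WT, all 13 with a positive value (median 0.76; 11 of 13 with library size only). The 13 late-embryo differentiation markers summed to 1221 to 3021 CPM in 3A and 900 to 4088 CPM in WT. Only 3 of these 13 had a positive value (median -0.25), and 2 of 13 with library size only (median -0.44). The 6 vitellogenin genes of the adult intestine summed to 1.45 to 102 CPM in 3A and 2.73 to 76.6 CPM in WT, all 6 with a positive value (median 0.84, and 0.57 with library size only). The 28 sperm msp genes summed to 1.24 to 3.86 CPM in 3A and 1.18 to 2.82 CPM in WT. Only 2 of the 28 had enough counts to be tested, both with a positive value (median 0.87, and 0.47 with library size only). Of these last 4 lists, 0 of the genes tested were called by edgeR or DESeq2. An unadjusted p under 0.05 in edgeR was found for 3 of 10 germline and meiosis markers and 7 of 13 early-embryo markers. It was also found for 2 of 13 late-embryo, 0 of 6 vitellogenin and 1 of 2 msp genes. The share over all genes tested was 9.75%. Only msp genes, 2 of them, had no count in any library. The part of these markers in the members' levels was not tested, and neither was that of the ribosomal RNA share.

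CD4.8 (WBGene00016993; WBcel235 chromosome V, 5599145 to 5601363, minus strand) is annotated as protein-coding. Its level was 15.3, 13.7, 13.3 and 11.5 CPM in 3A replicates 1 to 4, against 1.68, 1.44, 1.61 and 1.58 CPM in WT replicates 1 to 4. The lowest 3A library was 6.88 times the highest WT library. The means were 13.5 ± 1.56 CPM in 3A and 1.57 ± 0.101 CPM in WT (SD, n = 4 each), a log2 difference of 3.09 (SE 0.25) or 8.54-fold. This gene varied little among replicates. Its coefficient of variation in WT was 6.43%, lower than in all but 0.758% of the genes tested and below the 14.6% that counting error alone gives at 19 to 210 counts. The piRNA locus 21ur-13757 overlaps it on the other strand and had at most 3 counts in any library.

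CD4.10 (WBGene00022970; chromosome V, 5597061 to 5597450, minus strand) is annotated as a single-exon noncoding RNA of 390 bp. It follows CD4.8 in the direction of transcription after a gap of 1694 bp that holds no other annotated gene. Its level was 9.25, 4.78, 7.05 and 7.60 CPM in 3A replicates 1 to 4, against 0.689, 0.442, 0.291 and 0.581 CPM in WT replicates 1 to 4. Every 3A library was at least 6.94 times the highest WT library. The means were 7.17 ± 1.85 CPM in 3A and 0.501 ± 0.173 CPM in WT (SD, n = 4 each), a log2 difference of 3.90 (SE 0.38) or 14.9-fold, the largest of the 6 members. WT counts were 23, 32, 38 and 7, so counting error alone gives a coefficient of variation of 24.7% in WT, and the libraries were selected for poly(A), which not all noncoding RNAs carry.

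The T28A8 members lie head to tail on the plus strand in the order T28A8.6, T28A8.5, T28A8.4, all annotated as protein-coding. T28A8.6 (WBGene00012112; chromosome III, 13499199 to 13501510) was at 3.11, 7.46, 6.61 and 4.76 CPM in 3A replicates 1 to 4, against 0.839, 1.19, 1.74 and 0.997 CPM in WT replicates 1 to 4. The groups did not overlap, but 3A replicate 1 was 1.79 times the highest WT library, the narrowest gap of the cluster. The means were 5.49 ± 1.95 CPM in 3A and 1.19 ± 0.391 CPM in WT (SD, n = 4 each), a log2 difference of 2.18 (SE 0.37) or 4.54-fold.

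T28A8.5 (WBGene00012111; chromosome III, 13501630 to 13502718) begins 119 bp after T28A8.6 ends and is the shortest of the protein-coding members, with 702 coding bp in its longer annotated form. Its level was 3.97, 5.24, 5.75 and 4.67 CPM in 3A replicates 1 to 4, against 0.659, 1.16, 1.51 and 1.33 CPM in WT replicates 1 to 4. The lowest 3A library was 2.63 times the highest WT library. The means were 4.91 ± 0.766 CPM in 3A and 1.16 ± 0.365 CPM in WT (SD, n = 4 each), a log2 difference of 2.08 (SE 0.33) or 4.21-fold.

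T28A8.4 (WBGene00012110; chromosome III, 13503679 to 13505536) lies 960 bp beyond T28A8.5. Its level was 6.34, 8.30, 8.67 and 7.51 CPM in 3A replicates 1 to 4, against 1.50, 1.81, 1.85 and 2.74 CPM in WT replicates 1 to 4. Again the groups were apart, by a factor of 2.31 between the lowest 3A and the highest WT library. The means were 7.71 ± 1.03 CPM in 3A and 1.97 ± 0.534 CPM in WT (SD, n = 4 each), a log2 difference of 1.99 (SE 0.28) or 3.97-fold. The 3 fold changes of the cluster, from 3.97-fold to 4.54-fold, lie within 1 SE of each other. The gap between T28A8.5 and T28A8.4 is not empty. It holds T28A8.8, on the same strand and 94 bp after T28A8.5, which had 0, 17, 4 and 3 counts in 3A replicates 1 to 4 and 1, 9, 29 and 0 counts in WT replicates 1 to 4. At these counts T28A8.8 was too low to be tested, and its libraries overlapped between the groups.

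Y47G6A.25 (WBGene00021649; chromosome I, 3606407 to 3608345, minus strand) is annotated as protein-coding with 6 coding exons. Its level was 5.55, 8.75, 9.34 and 6.50 CPM in 3A replicates 1 to 4, against 2.01, 2.11, 2.17 and 3.49 CPM in WT replicates 1 to 4. It had the narrowest separation of the 6, with the lowest 3A library 1.59 times the highest WT library, which was replicate 4. The means were 7.54 ± 1.80 CPM in 3A and 2.44 ± 0.699 CPM in WT (SD, n = 4 each), a log2 difference of 1.65 (SE 0.30) or 3.14-fold. Y47G6A.39, a gene annotated on the other strand, overlaps it and was not analysed here.

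**Figure D1:**
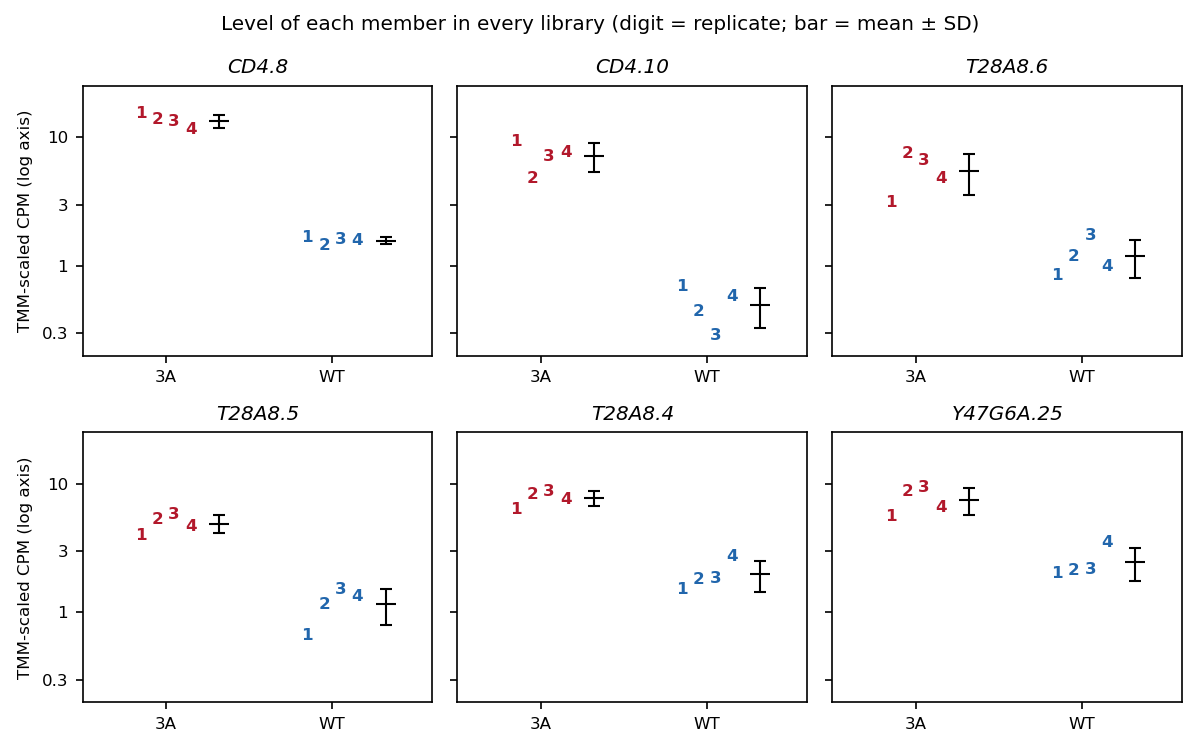
TMM-scaled CPM (log axis) of the 6 genes in each 3A and WT library; digits are replicate numbers and bars show the mean ± SD of 4 libraries. In every panel the 3A libraries lie above the WT libraries, with the widest separation for CD4.8 and CD4.10 and the narrowest for Y47G6A.25.

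All 6 members passed the filter on low counts and all 6 were called, where 0.371% of the 12664 genes tested were called in either direction and 0.355% with a higher level in 3A. The groups did not overlap for any of the 6, against 3.8% of all genes tested with every 3A library above every WT library. Because this contrast chose the genes, these counts, and those over the other fits below, describe the choice and are no test of it. The separation partly depends on scaling: without TMM factors, CD4.8, CD4.10 and T28A8.4 stayed apart, whereas 3A and WT overlapped for T28A8.5, T28A8.6 and Y47G6A.25. Scaling by library size alone moved the median over all genes by -0.32 (log2), and there 1 member was called, CD4.10. All 6 log2 fold changes stayed positive in each of the 16 other fits, which included leaving out each library and leaving out both 3A libraries with over 10% ribosomal RNA. Without those 2 libraries, which were 3A replicates 1 and 4, the log2 fold changes were 3.10 for CD4.8, 3.61 for CD4.10, 2.13 for T28A8.4, 2.25 for T28A8.5, 2.54 for T28A8.6 and 1.92 for Y47G6A.25, and 3 of the 6 were called (CD4.8, CD4.10 and T28A8.6). In the 8 fits without 1 library, CD4.8 and CD4.10 were called in all 8, T28A8.4 and T28A8.5 in 6, T28A8.6 in 4 and Y47G6A.25 in 2.

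Levels were compared between genes per kilobase of exon. In 3A the noncoding CD4.10 was highest, at 18.4 ± 4.74 CPM per kb, and CD4.8 followed at 7.12 ± 0.824 CPM per kb, with no overlap between their libraries. T28A8.5 (5.45 ± 0.851), Y47G6A.25 (5.20 ± 1.24) and T28A8.4 (5.07 ± 0.678 CPM per kb; SD, n = 4 each) came next, overlapped each other, and the first 2 of them also overlapped CD4.8. T28A8.6 was lowest at 2.70 ± 0.957 CPM per kb, below every library of T28A8.4. In WT the order was Y47G6A.25 at 1.69 ± 0.482, T28A8.4 at 1.30 ± 0.352, T28A8.5 at 1.29 ± 0.405, CD4.10 at 1.28 ± 0.443, CD4.8 at 0.833 ± 0.0536 and T28A8.6 at 0.585 ± 0.192 CPM per kb, and each gene overlapped the next. Among all tested genes in the annotation, the members stood above 44.2% to 78.4% of genes in 3A and above 12.9% to 33.4% in WT. They were thus detectable in every WT library, at low levels.

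The ratio of 2 members within a library needs no scaling between libraries. For CD4.10 over CD4.8, the log2 ratio of counts per exonic kilobase was 1.55, 0.76, 1.36 and 1.67 in 3A replicates 1 to 4, against 0.99, 0.58, -0.19 and 0.84 in WT replicates 1 to 4. The ratio averaged 1.34 ± 0.40 in 3A and 0.55 ± 0.52 in WT (SD, n = 4 each), and the groups overlapped. Counting alone gives an SD of 0.15 in 3A and 0.41 in WT.

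Within the T28A8 cluster the mean log2 ratios differed between the genotypes by less than the replicate SD in WT. For T28A8.5 over T28A8.6 the log2 ratio averaged 1.08 ± 0.36 in 3A and 1.13 ± 0.33 in WT (SD, n = 4 each). For T28A8.4 over T28A8.6 it averaged 0.98 ± 0.38 in 3A and 1.17 ± 0.57 in WT. T28A8.4 and T28A8.5 were close to equal per kilobase, with a log2 ratio of -0.077, -0.091, -0.16 and -0.070 in 3A replicates 1 to 4, against 0.43, -0.11, -0.46 and 0.29 in WT replicates 1 to 4. All 3 ratios overlapped between the groups. The 3A spread of the last ratio, 0.042, was under its counting error of 0.20. The WT SDs of these ratios were 0.33 to 0.57, where counting alone gives 0.31 to 0.37. Small shifts may have been missed, and a detection limit was not computed.

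**Figure D2:**
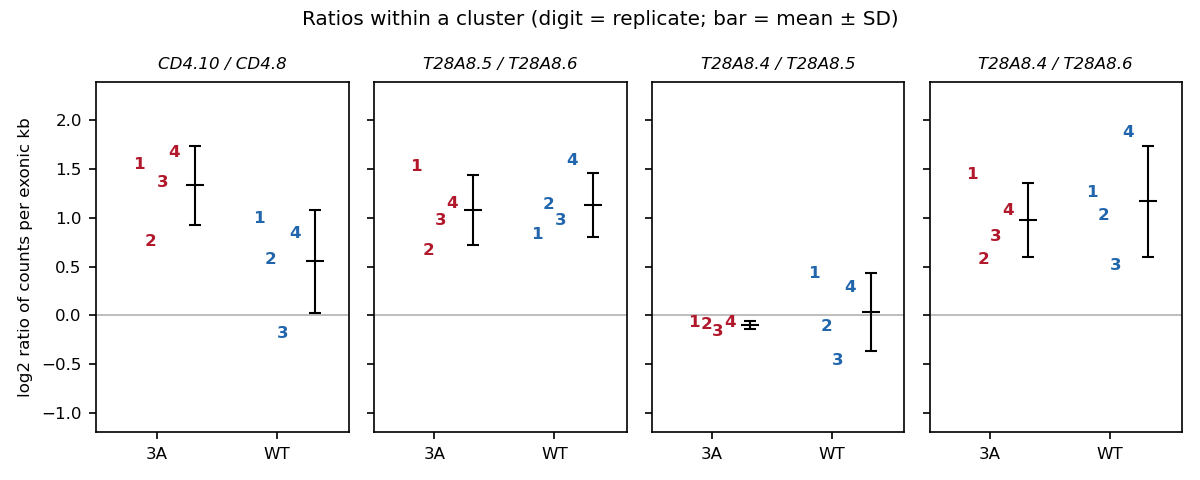
Log2 ratio of counts per exonic kilobase between members of 1 cluster in each 3A and WT library; digits are replicate numbers and bars show the mean ± SD. The groups overlap in all 4 panels. CD4.10 over CD4.8 averaged 1.34 in 3A and 0.55 in WT, and the T28A8 ratios differed less between the groups.

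A correlation between neighbours within a group would rest on 4 libraries, and one over all 8 would restate the difference between the groups, so no correlation is given. The deviation of each gene from the mean of its own group was used instead. In 3A all 3 T28A8 genes and Y47G6A.25 were above their group mean in replicates 2 and 3 and below it in replicates 1 and 4. The same split separates the 3A libraries by ribosomal RNA, which took 16.1% and 40.7% of counts in replicates 1 and 4 and 1.75% and 3.67% in replicates 2 and 3. In WT the same genes were also all below their group mean in replicate 1, where ribosomal RNA took 3.24% of counts. Their signs were mixed in WT replicates 2 to 4. The part of ribosomal RNA in these shared signs was not tested. T28A8.6 had the widest swing, with deviations in log2 CPM of -0.74, 0.52, 0.35 and -0.13 in 3A replicates 1 to 4. CD4.10 had the opposite sign to the T28A8 genes in 3A replicates 1, 2 and 4, at 0.41, -0.54 and 0.12. CD4.8 had it in 3A replicates 1 and 3, at 0.20 and -0.013. On the TMM scale the 3A library with the lowest T28A8 levels, replicate 1, had the highest summed germline markers. These sums were 156, 92.8, 125 and 141 CPM in 3A replicates 1 to 4. The TMM factors of these libraries were 0.687, 1.44, 1.06 and 0.630, and the order of the sums does not hold without them. No link between the markers and the T28A8 levels was tested.

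Likeness was measured as the root mean square (RMS) difference of these deviations over the 8 libraries. T28A8.5 differed from T28A8.4 by 0.25 and from T28A8.6 by 0.30, and T28A8.4 from T28A8.6 by 0.41. Pairs of tested neighbours on 1 strand with a gap of at most 500 bp had a median of 0.54 (2042 pairs), and all tested neighbours one of 0.62 (12578 pairs). The T28A8 pairs lay below both medians, though only T28A8.6 and T28A8.5 are neighbours with a gap under 500 bp. So did every other pair of the 6 members, on different chromosomes or not, with 3 exceptions. These were CD4.10 with T28A8.5 (0.70), with T28A8.6 (0.83) and with Y47G6A.25 (0.56). Lying below the medians was thus not particular to neighbours. It was not tested, since the genes were chosen together. CD4.8 and CD4.10 differed by 0.40 and lay on the same side of their group means in 4 of 8 libraries. The closest pair among the 6 genes was not made of neighbours: T28A8.4 on chromosome III and Y47G6A.25 on chromosome I differed by 0.12 and were on the same side in 8 of 8 libraries. Among the other 12663 genes tested, T28A8.4 ranked 2 in closeness to Y47G6A.25, and Y47G6A.25 ranked 14 in closeness to T28A8.4. The neighbours ranked lower: T28A8.5 ranked 765 from T28A8.4 and T28A8.4 ranked 791 from T28A8.5, T28A8.6 ranked 1534 from T28A8.5 and T28A8.5 ranked 640 from T28A8.6, and CD4.10 ranked 4415 from CD4.8 and CD4.8 ranked 2643 from CD4.10. Many genes elsewhere in the genome thus had a smaller distance to a member than its own neighbour had. These distances include counting error. Counting alone gives the log2 ratio of T28A8.4 over T28A8.5 an SD of 0.20 in 3A and 0.31 in WT. For T28A8.5 over T28A8.6 it gives 0.22 and 0.37, and for CD4.10 over CD4.8 0.15 and 0.41. The ranks therefore cannot show whether neighbours vary together less than distant genes do.

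**Figure D3:**
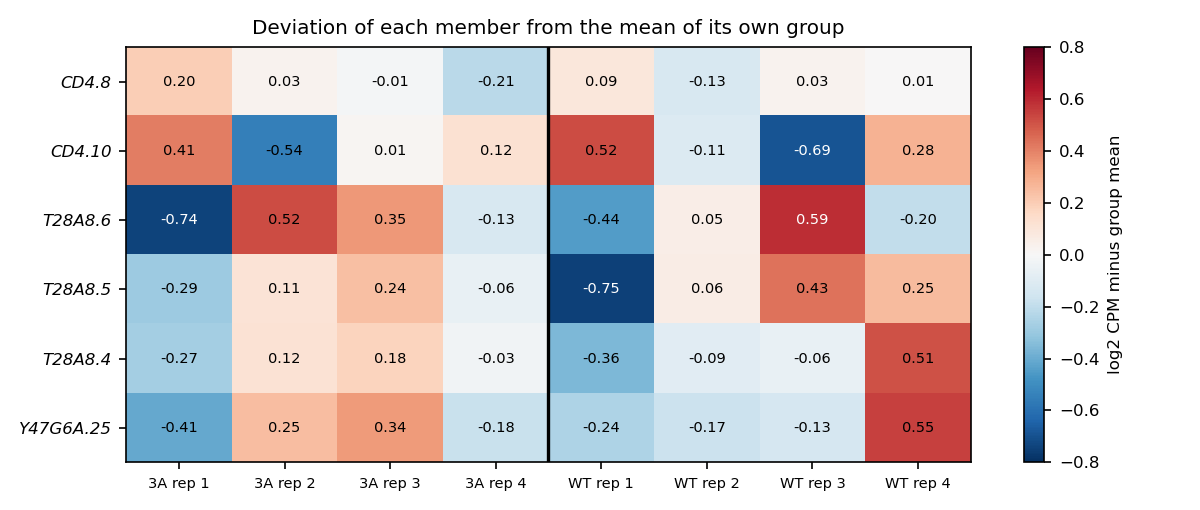
Log2 CPM of each gene minus the mean of its own group, for 3A libraries on the left of the line and WT libraries on the right. The T28A8 genes and Y47G6A.25 share their signs in the 3A libraries and in WT replicate 1. CD4.10 has the opposite sign in 3A replicates 1, 2 and 4, and CD4.8 in 3A replicates 1 and 3.

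The chromosomal surroundings show how far the difference extended. Within 10 kb of a member lie 26 further annotated genes, of which 25 are in the count tables and 16 could be tested. Of the 16, 1 was called, the innexin gene inx-22, where 0.371% of all genes tested were called. As the called neighbour of Y47G6A.25, inx-22 is taken as part of the choice of genes. Of the 16, 9 had a positive log2 fold change, and the median was 0.16. Around CD4, 0 of the 6 tested flanking genes were called by edgeR or DESeq2 and 0 had an unadjusted p under 0.05. Their log2 fold changes ran from -0.50 to 0.0060. The nearest downstream gene, zhit-1, which encodes a zinc finger protein, starts 509 bp after CD4.10 on the same strand. It was at 8.13, 14.4, 16.7 and 14.7 CPM in 3A replicates 1 to 4, against 6.32, 14.8, 13.8 and 19.1 CPM in WT replicates 1 to 4. The groups overlapped, and the difference was 0.0060 (SE 0.35) on the log2 scale. Upstream, the nearest tested gene was CD4.1, 5191 bp from CD4.8 on the other strand, with means of 1.72 CPM in 3A and 1.72 CPM in WT.

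At T28A8 the run of genes on the plus strand continues with T28A8.3, 481 bp after T28A8.4. Its level was 9.38, 9.80, 14.3 and 13.3 CPM in 3A replicates 1 to 4, against 3.63, 4.93, 4.43 and 6.48 CPM in WT replicates 1 to 4. The groups did not overlap. The difference of 1.27 on the log2 scale (SE 0.28) did not pass the adjustment over all genes (adjusted p = 0.102, edgeR). It was called in 4 of the 16 other fits, DESeq2 among them, where the adjusted p ranged from 0.00298 to 0.799. mlh-1, a DNA mismatch repair gene 3764 bp away on the other strand, had a value of 0.33 (SE 0.30) and an adjusted p of 0.751 in edgeR. On the upstream side the nearest tested gene was twk-40, a potassium channel gene 6721 bp from T28A8.6, at -0.85 (SE 0.63) and an adjusted p of 0.696, with at most 16 counts in a 3A library. pod-1, a gene of the actin cytoskeleton 9404 bp past T28A8.4, was at -0.51 (SE 0.61).

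Y47G6A.25 and inx-22 stand head to head, with 172 bp between them. inx-22 encodes a gap junction protein known from the C. elegans germ line. It was at 7.73, 6.84, 9.90 and 9.16 CPM in 3A replicates 1 to 4, against 1.05, 0.718, 1.38 and 1.41 CPM in WT replicates 1 to 4. The lowest 3A library was 4.84 times the highest WT library. On the log2 scale its difference was 2.90 (SE 0.31), against 1.65 for Y47G6A.25. It was called in 15 of the 16 other fits, the exception being library size only. It is the 1 called neighbour of Y47G6A.25, so its value is taken as part of the choice and given as a description.

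All 6 tested flanking genes within 10 kb of Y47G6A.25 had a positive log2 fold change, though mis-12 was at -0.039 with library size only. inx-21, another germline innexin gene further along the strand of inx-22, was at 1.65, 2.51, 2.63 and 1.47 CPM in 3A replicates 1 to 4, against 0.360, 0.704, 0.803 and 0.166 CPM in WT replicates 1 to 4. The difference of 1.91 (SE 0.45) on the log2 scale had an adjusted p of 0.149 in edgeR; over the 16 other fits this ranged from 0.0034 to 0.799, and 3 called the gene. Y47G6A.3, 3498 bp on the other side, differed by 1.86 (SE 0.36) with an adjusted p of 0.0574 in edgeR; the other fits gave 0.000188 to 0.799, and 5 called it. For both genes the 3A libraries lay above the WT libraries. Between Y47G6A.25 and Y47G6A.3 lie mis-12, a kinetochore gene, and Y47G6A.31, which did not pass the test, at 0.38 (SE 0.26) and 0.31 (SE 0.24) with adjusted p-values of 0.670 and 0.716 in edgeR. mis-12 begins 662 bp past the end of Y47G6A.25 on its strand and was at 29.2, 26.7, 41.5 and 33.1 CPM in 3A, against 17.2, 26.6, 29.2 and 27.5 CPM in WT. The libraries of mis-12 overlapped between the groups.

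**Figure D4:**
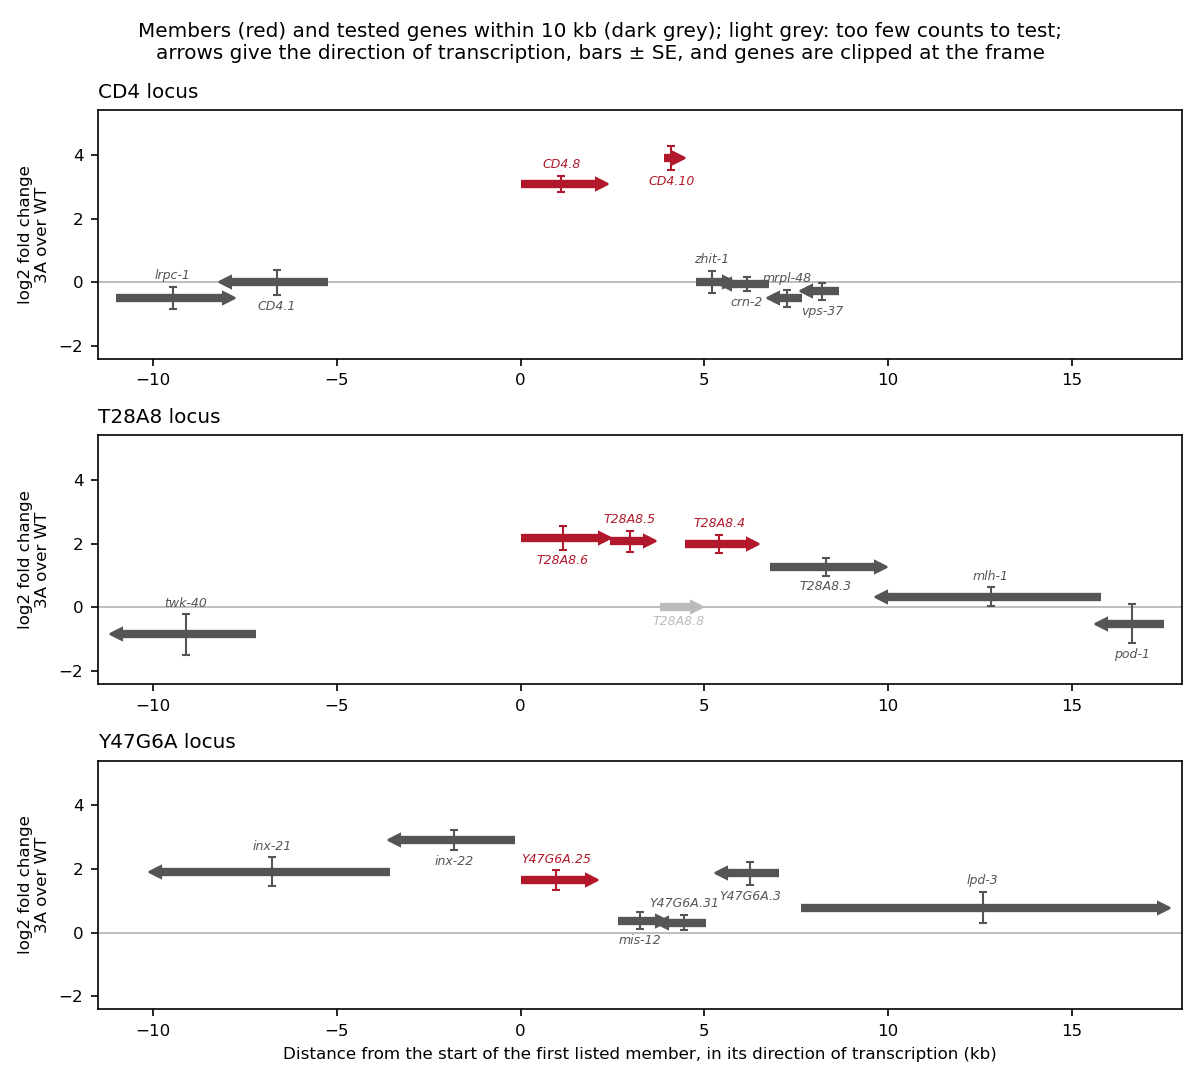
Log2 fold change of 3A over WT (± SE) for the members in red and the tested genes within 10 kb in dark grey, against distance in kb from the start of the first member in its direction of transcription; arrows give each gene's direction. Around CD4 the flanking genes lie between -0.50 and 0.0060, T28A8.3 follows the T28A8 members at 1.27, and inx-22 at 2.90 stands beside Y47G6A.25.

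Over the whole annotation, 12578 pairs of tested genes have no other tested gene between them, and in 4 pairs both genes were called. These were T28A8.6 with T28A8.5, T28A8.5 with T28A8.4, CD4.10 with CD4.8, and Y47G6A.25 with inx-22. In 84 further pairs 1 gene was called. The members are thus all the genes in such pairs except inx-22. Of the genes named after the same clones, 6 further CD4, 3 further T28A8 and 27 further Y47G6A genes were tested, and 0, 0 and 1 of them were called, the last being inx-22. Their median log2 fold changes were -0.025, 0.33 and 0.21.

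The annotation shows a likeness that the choice of genes did not use. In CD4.8, T28A8.4 and T28A8.6 coding exons 2 and 4 are each 114 bp long, and the final coding exon is 60, 63 and 60 bp. CD4.8 and T28A8.4 also share a length of 216 bp at exon 7, and CD4.8 and T28A8.6 one of 282 bp at exon 3. T28A8.5 has 114 bp at exon 2 and 60 bp at its last exon, but no other exon of 114 bp. Y47G6A.25 has none of these lengths. Of 19985 protein-coding genes in the annotation, 11 have 114 bp at both exon 2 and exon 4 (0.055%), and 3 of these are members. The lengths were picked from the members themselves, so this share is a description. The other 8 are T28A8.3, Y57A10A.4, Y57A10A.5, Y57A10A.8, M57.1, B0212.3, B0205.9 and Y45F10C.1. Whether the encoded proteins are alike was not analysed here, and reads that align to several places are left out of the gene counts, so a near-identical copy would lower them.

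**Figure D5:**
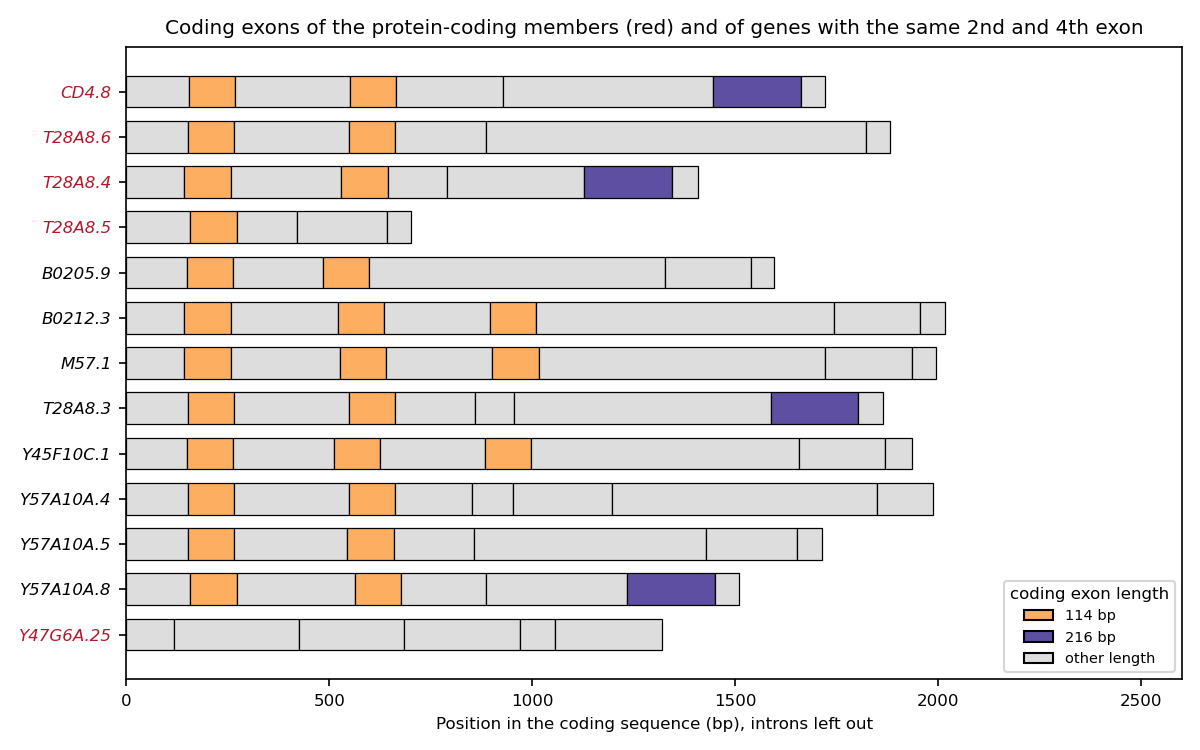
Coding exons drawn to scale in bp with introns left out, for the protein-coding members (red) and the other genes with the same lengths of exons 2 and 4. CD4.8, T28A8.6 and T28A8.4 share both 114-bp exons, T28A8.5 has the first of them, and Y47G6A.25 has neither.

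The 8 other genes of this structure were compared in the same fit. Y45F10C.1, with at most 3 counts in a library, was too low to test. Of the 7 tested, 0 were called, 2 had an unadjusted p under 0.05 (T28A8.3 and Y57A10A.5) and 1 was called by DESeq2 (T28A8.3). All 7 had a positive log2 fold change, from 0.11 to 1.27 with a median of 0.56 against -0.08 for all genes tested, though with library size only Y57A10A.8, B0205.9 and M57.1 were below 0 and the medians were 0.19 and -0.40. M57.1 was also below 0 without 3A replicate 2 and without WT replicate 1. T28A8.3 was the highest of them. The 3 Y57A10A genes, which lie close together on chromosome II, had values of 1.21 (SE 0.40) for Y57A10A.5, 0.98 (SE 0.49) for Y57A10A.4 and 0.38 (SE 0.34) for Y57A10A.8, with adjusted p-values of 0.375, 0.553 and 0.757 (edgeR). Y57A10A.5 had means of 1.03 ± 0.339 CPM in 3A and 0.446 ± 0.0948 CPM in WT (SD, n = 4 each). M57.1 and B0212.3, close together on chromosome IV, had 0.11 (SE 0.31) and 0.56 (SE 0.30).

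Other genes had 8-library profiles like those of the 3 loci, measured as the RMS difference of log2 CPM after subtracting each gene's mean. Since these profiles contain the group difference, the genes are given as a description. Nearest to the CD4 profile were F28F8.7 (RMS 0.39), F37D6.3 (0.40) and F57A10.2 (0.42), where the median over the 10515 genes averaging 1 CPM or more was 1.80. F37D6.3 averaged 14.0 ± 3.62 CPM in 3A and 1.90 ± 0.680 CPM in WT (SD, n = 4 each). Nearest to the T28A8 profile were C29A12.1 (0.21), Y47G6A.3 (0.26), which flanks Y47G6A.25, and the pseudogene WBGene00077457 (0.30), where the median was 1.20. Nearest to Y47G6A.25 were C45H4.14 (0.25), T07F10.5 (0.26) and C28A5.6 (0.27), where the median was 1.01. T07F10.5 averaged 7.43 ± 0.912 CPM in 3A and 2.43 ± 0.941 CPM in WT. With each group centred on its own mean, the nearest 3 genes of each locus were 9 others, none of them called.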

How the data were processed

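RNA was measured in 8 libraries, 4 of 3A and 4 of WT, grouped by sample title. The authors deposited raw counts of read pairs per WormBase gene, 1 table per library. The submitters' processing notes name fastp, STAR, HTSeq, DESeq2 and WBcel235, with no versions or roles, and the annotation release is not given in the sources used here. Counters that name no gene, 3.32% to 15.5% of the pairs recorded in the count tables, were left out. Unaligned pairs are not part of these shares. Names, positions and exon lengths came from the Ensembl annotation of WBcel235, matched by gene identifier.

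The test was run in edgeR 4.0.16 under R 4.3.3: filterByExpr (minimum count 10), TMM scaling and the quasi-likelihood F-test of 3A against WT over 12664 genes, with Benjamini-Hochberg adjustment. Calls used an adjusted p under 0.05. The SE is the log2 fold change divided by the square root of F. Alternatives used DESeq2 1.42.0, sva 3.50.0, other scalings and filters, the replicate number, and omitted libraries. Log2 CPM for profiles had a prior count of 0.5.

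A floor of 3 counts corresponds to 0.0441 to 0.205 CPM. Counting errors are Poisson and cover counting only, as reads carry no molecular identifiers. Replicates of a group differed beyond sampling noise in every pair (chi-square over its degrees of freedom 60.3 or more), so none was merged. The samples are labelled biological replicates, with no culture named, and p-values measure the spread between them.

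The members and lists were chosen with earlier results of these data known. Named genes are the members, the nearest tested gene on either side, flanking genes that were called, the 3 nearest profiles per locus and lin-52. The other flanking genes named, and the genes sharing exon lengths, were added after values of these data were seen. Promoter motifs were not analysed here.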

Additional observations from a re-analysis of the deposited data

Results flagged for a closer look

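In 66 groups of 4 libraries (members, their ratios, tested flanking genes, genes of like exon structure and lin-52), 5 had 1 library standing apart by Dixon's criterion, where chance flags about 1 group in 20. Among the members this was Y47G6A.25 in WT, at 3.49 CPM in replicate 4 against 2.01 to 2.17 CPM in the other WT libraries. The largest gap was that of pod-1, a flanking gene of T28A8, at 266 CPM in WT replicate 1 against 36.8 to 48.2 CPM in the others. lpd-3 was at 5.22 CPM in 3A replicate 4 against 1.53 to 1.94 CPM in the others, and Y47G6A.31 at 43.9 CPM in 3A replicate 3 against 31.6 to 33.4 CPM. Y57A10A.4 was at 0.569 CPM in WT replicate 1 against 0.249 to 0.283 CPM.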

How the results depend on the processing

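All 6 members kept a positive log2 fold change in each of the 16 other fits. Without TMM factors (library size only) all 6 were lower, and the median over all genes tested moved by -0.32. CD4.8 moved to 2.77 and T28A8.5 to 1.67, by more than their pooled replicate SDs of 0.14 and 0.40, T28A8.5 only barely. The other members moved by less than theirs. The count of genes called, 47, was 10 by library size only, 71 with no filter on low counts, 367 with 1 surrogate variable and 165 with the DESeq2 Wald test. It ranged from 18 to 196 without 1 library (30 without 3A replicate 1, 18 without 3A replicate 3, 196 without WT replicate 1, 18 without WT replicate 2 and 25 without WT replicate 3), and was 17 without both 3A libraries of over 10% ribosomal RNA, a choice made after the data were seen. The count of flanking genes called, 1, was 0 by library size only, 2 with no filter, 4 with the surrogate variable, 4 with DESeq2, from 1 to 3 without 1 library (3 without WT replicate 1), and 0 on the nearest member's strand alone. Fitting the replicate number as a replicate block gave 175 genes and 4 flanking genes called. The numbers were not taken as pairs: same-numbered libraries had correlated deviations of 0.53, 0.58, 0.18 and 0.018 for replicates 1 to 4, and not every library correlated best with its own number. Without division by exon length the mean log2 ratios were -0.94 in 3A and -1.72 in WT for CD4.10 over CD4.8, -0.097 and -0.043 for T28A8.5 over T28A8.6, 0.66 and 0.79 for T28A8.4 over T28A8.5, and 0.56 in 3A for T28A8.4 over T28A8.6. That change comes from the lengths alone. The causes of the other changes were not tested.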
